A study of Mus musculus with 12 samples.

Results

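This report describes 37 genes of chemokines, cytokines and targets of NF-kB or interferon in RNA-seq of mouse pancreatic islets. The genes were given as a list of symbols, and a gene was included when its symbol stood in the deposited expression table. All 37 symbols were found among the 24078 transcripts of the table. RNA was sequenced from 12 male mice, 4 of each of 3 genotypes, with 1 library for each animal. WT mice carried both intact copies of Wfs1, Wfs1HZ mice were heterozygous and Wfs1KO mice homozygous for the Wfs1tm1Koks allele, in which a LacZ cassette stands in place of most of exon 8. The allele is present in every cell of the body and leaves a truncated WFS1 protein fused to LacZ, not an empty locus. All animals were F2 hybrids of 129S6/SvEvTac and C57BL/6 aged 5 to 6 months. Their islets were freed with collagenase, picked by hand and kept in high-glucose culture medium overnight before RNA was isolated, and no cytokine treatment is described for any group. The sources used here do not say which of the sequenced animals were littermates.

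NF-kB is a family of transcription factors that inhibitor proteins of the IkB family hold in the cytoplasm. When receptors for interleukin-1, tumor necrosis factor or bacterial products are engaged, the inhibitor is broken down and NF-kB enters the nucleus, where it switches on chemokines, cytokines, adhesion molecules and its own inhibitors. Interferons act through JAK kinases and STAT proteins and switch on genes of antiviral defense, among them Isg15, the Ifit genes and the guanylate-binding proteins. Chemokines are small secreted proteins that attract white blood cells. Beta cells, duct cells, stromal cells and resident macrophages of the islet can all express such genes, and interleukin-1, tumor necrosis factor and interferon-gamma together harm beta cells.

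Both pathways can be seen in the DNA upstream of some of the genes. RefSeq promoters of the GRCm38.p6 build were at hand for 28 of the 37 genes, and the 250 bases before the start site were searched on both strands. The kB motif, a form of the NF-kB site read here as GGGA and TTCC with any 2 bases between them, was found in 6 of the 28 genes (21.4%) and in 1.36% of all 27025 genes with a promoter. The genes were Cxcl1, Cxcl2, Cxcl10, Csf1, Il6 and Nfkbia. The interferon-stimulated response element (ISRE), read here as GAAA and GAAA with any 2 bases between them, was found in 7 of the 28 genes (25%) and in 3.46% of all genes. These were Cxcl10, Saa3, Isg15, Ifit1, Ifit3, Gbp2 and Socs1, so Cxcl10 was the gene with both. A match describes the letters of the window and does not show that a factor binds there. The windows of 7 genes whose values are described below are shown 5′ to 3′ along the strand of the gene, with the motifs in capitals and 30 bases on either side or as far as the start site. In Cxcl1 and Cxcl2 the capitals hold the kB motif on both strands, overlapping by all but 1 base, and in Isg15 they hold 3 overlapping ISRE motifs.
Cxcl1 (chr5:90891144-90891214, plus strand): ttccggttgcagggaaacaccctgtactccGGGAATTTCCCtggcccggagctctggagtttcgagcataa
Cxcl2 (chr5:90903772-90903842, plus strand): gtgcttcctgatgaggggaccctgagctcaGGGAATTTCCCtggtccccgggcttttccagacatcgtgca
Il6 (chr5:30013040-30013109, plus strand): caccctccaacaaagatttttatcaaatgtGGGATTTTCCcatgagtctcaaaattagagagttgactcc
Nfkbia (chr12:55492648-55492706, minus strand): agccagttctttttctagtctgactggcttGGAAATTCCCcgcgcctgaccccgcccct
Cxcl10 (chr5:92349009-92349132, minus strand): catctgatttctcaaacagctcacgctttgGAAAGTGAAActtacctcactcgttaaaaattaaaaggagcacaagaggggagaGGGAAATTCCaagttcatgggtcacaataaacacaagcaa
Isg15 (chr4:156200845-156200926, minus strand): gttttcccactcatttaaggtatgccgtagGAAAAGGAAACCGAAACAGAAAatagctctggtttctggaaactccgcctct
Ifit1 (chr19:34640755-34640843, plus strand): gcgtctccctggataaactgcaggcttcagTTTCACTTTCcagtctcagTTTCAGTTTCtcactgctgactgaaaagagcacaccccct

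Expression was given in RPKM, which divides reads by transcript length and library size, so levels of different genes can be set side by side. The values hold no counts, and the reads behind them were estimated at 2191000 (Wfs1HZ replicate 2) to 9565000 (Wfs1KO replicate 1) for a library. At that depth 3 reads on a transcript of 2 kb are worth 0.157 to 0.685 RPKM, counting error only. The estimates are of reads that entered the RPKM. The paper gives a larger number of reads for each sample, and the sources used here do not explain the difference. Averaged over the 12 animals, 36 of the 37 genes reached 1 RPKM and 26 reached 10 RPKM. Lcn2 had the highest mean, 1429 RPKM, followed by Cxcl1 with 244 and Ccl2 with 242 RPKM. The median over the animals was under 10 approximate reads for 3 genes, Ccl4, Csf2 and Socs1, whose values therefore carry a large counting error. Some reads of related paralogs (Cxcl1 with Cxcl2, Ccl2 with Ccl7, Ccl3 with Ccl4, and the Ifit and Gbp genes with their family) may have been split or shared between them. Whether this happened cannot be seen from these values. Wfs1, the targeted gene, was lower in every Wfs1KO animal than in every WT animal, with a log2 fold change of -2.76 (SE 0.29, adjusted p = 0.04 from limma).

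One library stood apart for these genes. Wfs1KO replicate 4 had the lowest value of the 4 Wfs1KO animals in 35 of the 37 genes and the lowest value of all 12 animals in 24 genes. Over all 21701 transcripts tested, 3.99% were lowest in that animal. Conversely, the highest value of the 12 animals lay in Wfs1KO replicates 1 to 3 for 28 of the 37 genes, against 15% of all transcripts. To compare animals, the difference of each gene from its own mean over the 12 animals was taken on the log2 scale. The median difference of the 37 genes was 0.90, 1.05 and 1.13 in Wfs1KO replicates 1 to 3 and -1.70 in replicate 4. WT animals had -0.44, -0.93, 0.14 and 0.25, and Wfs1HZ animals 0.39, -0.64, 0.47 and -0.35. Thus 3 Wfs1KO animals lay above all others and the remaining one below all others, while WT and Wfs1HZ animals overlapped. For the 37 genes and the gene lists below, fold changes of Wfs1KO are therefore also given without replicate 4. Leaving out each animal in turn was planned, but replicate 4 was picked out because its values were seen.

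**Figure D1:**
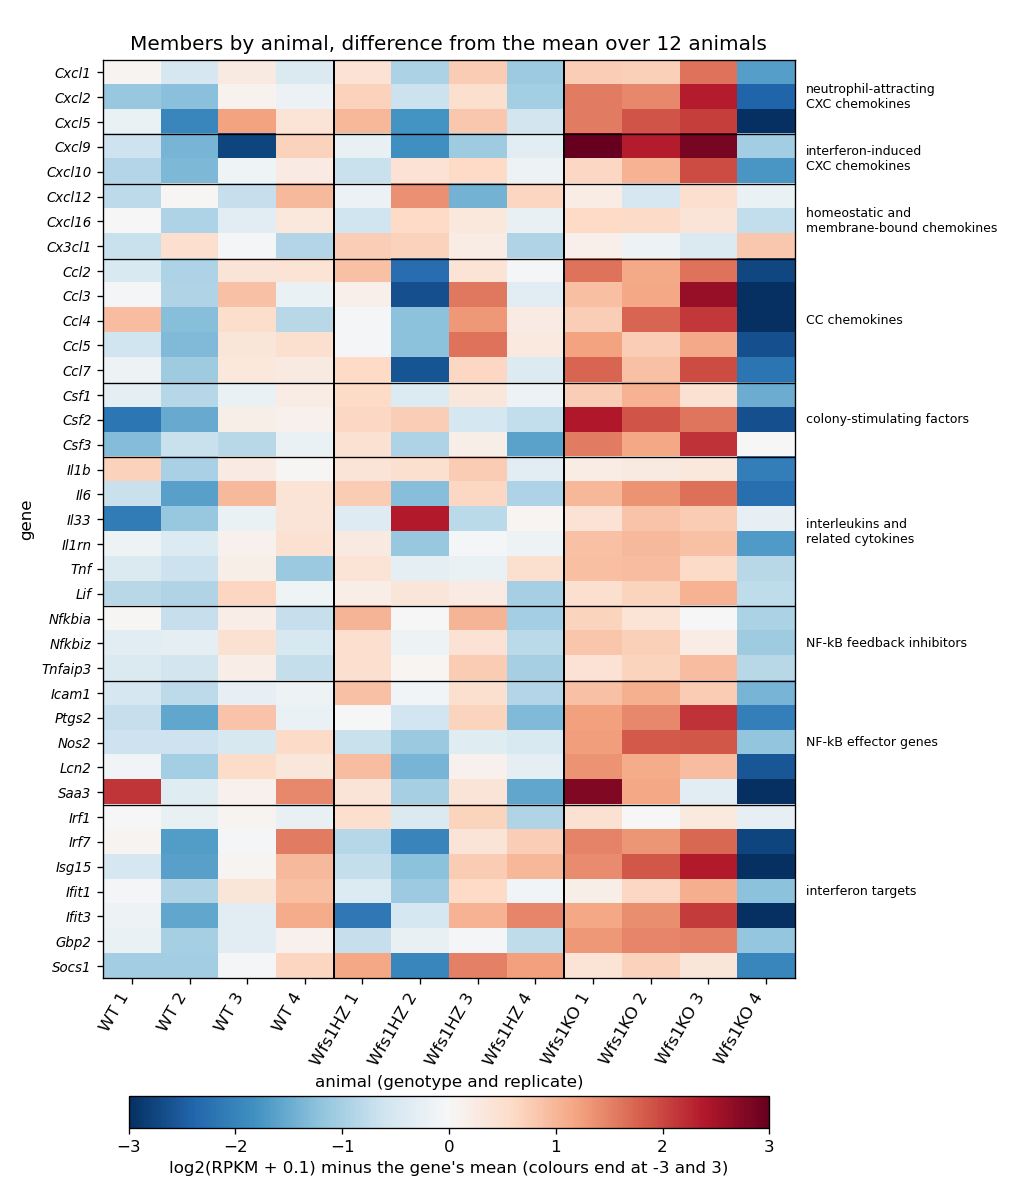
Each row is 1 of the 37 genes, grouped by role, and each column 1 animal. Colours show log2(RPKM + 0.1) minus the mean of the gene over 12 animals, red above and blue below, and Wfs1KO replicates 1 to 3 are mostly red while replicate 4 is mostly blue.

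The libraries also differed in RNA of the cells that make up an islet preparation. In bulk samples fewer cells of a type and less RNA per cell cannot be told apart. Islet hormone RNA was abundant in every library, with 50073 to 217165 RPKM of glucagon (Gcg) and 6423 to 76687 RPKM of insulin (Ins2). Of the 11 islet markers only Mafa was listed at 0 in any animal. Mafa was above 0 only in Wfs1HZ replicate 1 (0.35 RPKM) and Wfs1KO replicate 3 (0.11 RPKM). The 8 acinar markers, enzymes of the exocrine pancreas, were present in every library, and their sum was 48676 to 106186 RPKM in WT, 7924 to 285979 RPKM in Wfs1HZ and 7572 to 253079 RPKM in Wfs1KO animals. Wfs1KO replicate 4 had the lowest acinar sum of the 12 and also the lowest sum of 6 ductal markers, 192 RPKM against 427 RPKM or more elsewhere. It had the highest Gcg, 217165 RPKM, followed by WT replicate 2 with 182240 RPKM and Wfs1HZ replicate 2 with 155286 RPKM, and these were the 3 animals with the lowest median difference of the 37 genes. Wfs1HZ replicate 4 had the highest acinar sum, 285979 RPKM, and a median difference of -0.35. Wfs1HZ replicate 2 resembled Wfs1KO replicate 4 in its acinar sum, 7924 against 7572 RPKM, and had a median difference of the 37 genes of -0.64 against -1.70. These differences also hold the scale of each library. Over all transcripts the median difference was 0.71 in Wfs1HZ replicate 2, -0.67 in Wfs1HZ replicate 4 and 0.28 in Wfs1KO replicate 4.

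White blood cells were present at low levels. The sum of 13 macrophage markers, 9 of them above 0 in every animal and Aif1, Mrc1, C1qb and C1qc at 0 in at least 1, was 74.18 to 214 RPKM in WT, 80.67 to 149 RPKM in Wfs1HZ and 52.87 to 161 RPKM in Wfs1KO animals, lowest in Wfs1KO replicate 4. Cd68 and Cd14 made up most of these sums. Both were lowest of the 12 in that animal (11.11 and 22.74 RPKM), as was Fcer1g (2.3 RPKM). Tyrobp (5.36 RPKM), C1qa (3.9 RPKM) and C1qc (1.14 RPKM) were highest of the 12 there, and the remaining markers lay between. The markers thus did not all point the same way. Of 6 neutrophil markers 5 were found. Their sum was 5.01 to 45.42 RPKM in WT, 4.42 to 12.58 RPKM in Wfs1HZ and 4.92 to 15.13 RPKM in Wfs1KO animals, and S100a8, Retnlg, Camp and Ngp were each at 0 in at least 1 animal. The 8 lymphocyte markers summed to 1.42 to 7.63, 2.35 to 27.59 and 2.85 to 7.18 RPKM, and 6 of them, Cd3d, Cd79a and Nkg7 among these, were at 0 in at least 1 animal. The 9 endothelial markers summed to 33.78 to 98.6, 33.4 to 163 and 88.97 to 110 RPKM and the 8 stromal markers to 30.08 to 110, 28.92 to 459 and 82.86 to 199.55 RPKM in WT, Wfs1HZ and Wfs1KO animals, with none at 0. Wfs1KO replicate 4 had 3285000 reads, the third lowest depth of the 12 after Wfs1HZ replicate 2 and WT replicate 3 (2908000). The part of cell makeup, depth and RNA quality in the values of this animal was not tested.

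**Figure D2:**
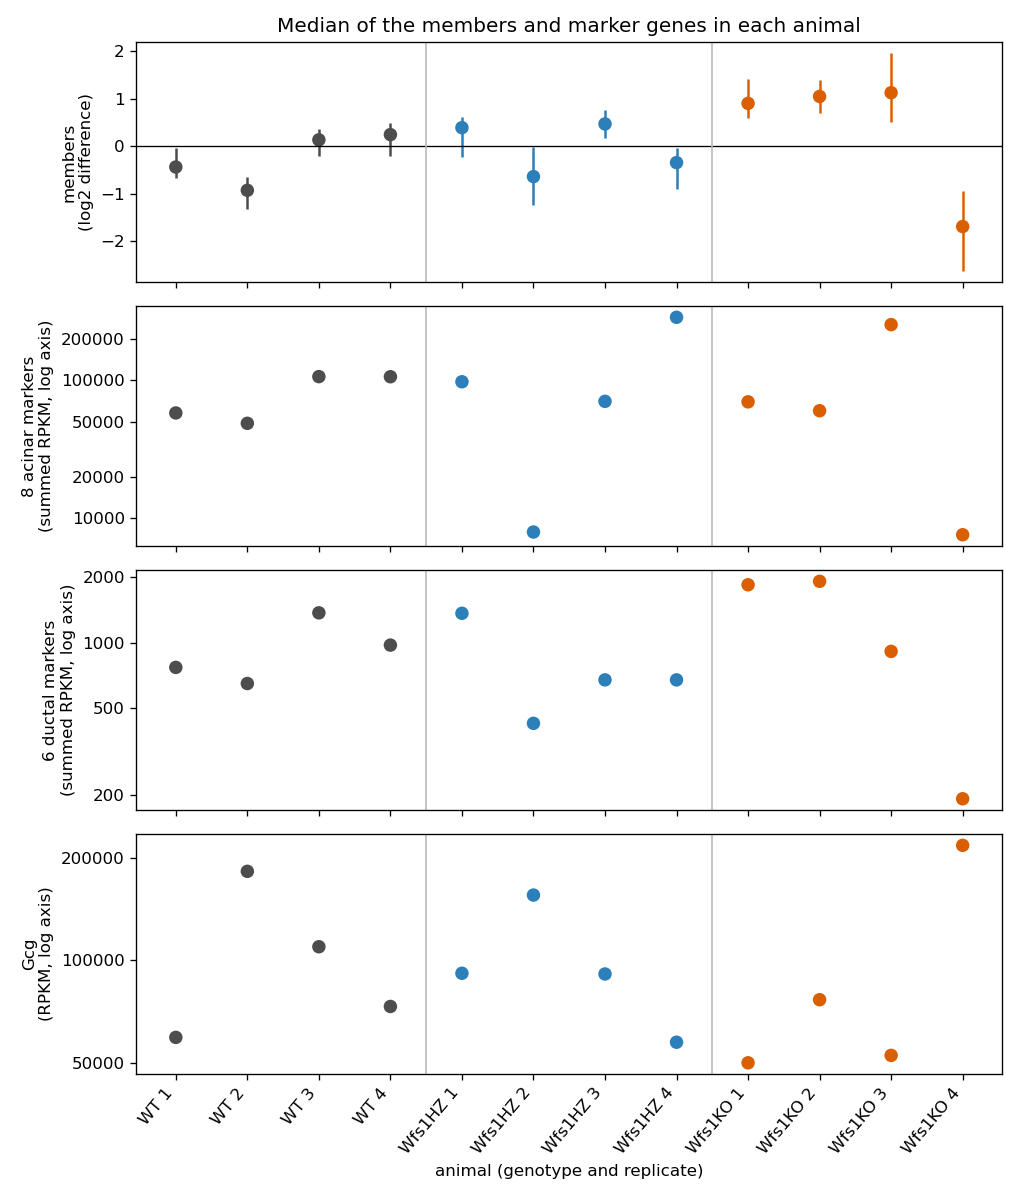
The 4 panels show, for each animal, the median difference of the 37 genes from their means (log2 scale, lines from the lower to the upper quartile over genes), the summed RPKM of 8 acinar and 6 ductal markers and the RPKM of Gcg, the last 3 on log axes. Wfs1KO replicate 4 has the lowest value in the upper 3 panels and the highest Gcg, and Wfs1HZ replicate 2 has a similar acinar sum of 7924 RPKM.

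The first comparison asked which of these genes differed between islets of Wfs1KO and WT mice. With all animals, 0 of the 37 genes passed an FDR of 0.05 in limma (p adjusted by Benjamini-Hochberg over all transcripts tested, of which 0.0138% passed), and the lowest adjusted p of the 37 genes was 0.586. The paper, which tested counts of these animals with edgeR, listed Csf3 and Cxcl9 as higher in Wfs1KO than in WT at an FDR under 0.05. In limma on RPKM, an unadjusted p under 0.05 was found for 2 genes, Csf3 and Cxcl9, where 5.64% of all transcripts had one. With sample weights in limma, which count unusual animals less, there were 15 (9.52% of all transcripts). Only for Csf3 did the animals of the 2 genotypes not overlap, where 2.74% of all transcripts were so separated. The log2 fold change was above 0 for 35 of the 37 genes (57.8% of all transcripts), and the median was 0.50 against 0.07 over all transcripts tested. In the same comparison the 8 stromal markers had a median log2 fold change of 1.13, 7 of 8 above 0, and the 9 endothelial markers one of 0.56, 9 of 9 above 0. Without replicate 4 these medians were 0.74 and 0.57. Their part in the values of the 37 genes was not tested. Without Wfs1KO replicate 4 the log2 fold change was above 0 for all 37 genes (51% of all transcripts) with a median of 1.32, and over all transcripts the median was then 0.01. In that setting 29 genes had an unadjusted p under 0.05, where 8.62% of all transcripts had one, and the 3 Wfs1KO animals lay above every WT animal for 25 genes, where 4.11% of all transcripts did so. No gene of the 37 reached an FDR under 0.05 in this setting either, and the lowest adjusted p was 0.117. Since the 3 animals were kept after their values were known, these counts describe 3 animals and are not a test of the genotype.

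Csf3, which encodes granulocyte colony-stimulating factor, the main growth factor of neutrophils, was the gene that separated Wfs1KO from WT (chromosome 11, 98701263 to 98703629). Its RPKM was 4.91, 7.66, 6.76 and 10.6 in WT, 16.65, 6.31, 13.78 and 3.92 in Wfs1HZ and 36.21, 27.52, 55.02 and 12.18 in Wfs1KO animals. All 4 Wfs1KO animals exceeded the highest WT animal, replicate 4 by a small margin, but the animals overlapped when libraries were rescaled by median of ratios or by quantiles. Wfs1KO and Wfs1HZ animals overlapped for Csf3. Against WT the log2 fold change of Csf3 was 1.97 (SE 0.43, limma adjusted p = 0.586), with p = 0.029 in an exact two-sided permutation test, which is the lowest p possible with 4 animals a side. It was 2.38 without replicate 4. The other colony-stimulating factors had means ± SD (n = 4) of 25.5 ± 7.53, 33.1 ± 10.4 and 41 ± 22 RPKM for Csf1, which supports macrophages, and of 1.6 ± 1.16, 2.62 ± 1.36 and 7.27 ± 5.2 RPKM for Csf2, which supports granulocytes and macrophages, in WT, Wfs1HZ and Wfs1KO islets. Csf2 was at 12.75, 8.77 and 7.28 RPKM in Wfs1KO replicates 1 to 3, at 0.29 RPKM in replicate 4 and at most 3.95 RPKM in the other genotypes, with about 97.6 reads in the deepest library, replicate 1, and fewer than 3 in replicate 4.

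The chemokines Cxcl1, Cxcl2 and Cxcl5 attract neutrophils through the receptor CXCR2. Cxcl1 (chromosome 5, 90891241 to 90893115), with the kB motif shown above, had 214.12, 141.76, 242 and 148.75 RPKM in WT, 274.07, 104.55, 341.42 and 94.16 RPKM in Wfs1HZ and 338.73, 331.66, 627.94 and 64.63 RPKM in Wfs1KO animals. Wfs1KO held both the highest and the lowest value, and the log2 fold change against WT was 0.52 (SE 0.61, adjusted p = 0.944 from limma), and 1.18 without replicate 4. Cxcl5 (chromosome 5, 90759360 to 90761624) had 29.68, 8.65, 78.42 and 45.57 RPKM in WT, 67.68, 9.84, 59.87 and 23.42 RPKM in Wfs1HZ and 100.6, 127.11, 142.98 and 1.46 RPKM in Wfs1KO animals. Wfs1KO overlapped with the other genotypes through replicate 4 alone, and the highest value was 97.9 times the lowest, which stands for about 8.9 reads. Cxcl5 had a log2 fold change of 0.40 against WT (SE 1.40, adjusted p = 0.993 from limma), 1.98 without replicate 4 and -0.21 without WT replicate 2. Cxcl2 followed the same pattern at 21.2 ± 9.59, 31.1 ± 16.6 and 82.6 ± 61.1 RPKM (SD, n = 4) in WT, Wfs1HZ and Wfs1KO islets. It reached 88.26, 81.65 and 155 RPKM in Wfs1KO replicates 1 to 3, above the highest other animal at 48.67 RPKM, while replicate 4 had the lowest value of all, 5.58 RPKM.

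Cxcl9 and Cxcl10 attract T cells through the receptor CXCR3 and are induced by interferon-gamma. Cxcl9 (chromosome 5, 92321347 to 92328079) had 0.86, 0.46, 0.12 and 2.29 RPKM in WT, 1.16, 0.31, 0.6 and 1.09 RPKM in Wfs1HZ and 15.42, 7.44, 10.46 and 0.62 RPKM in Wfs1KO animals. The lowest of Wfs1KO replicates 1 to 3 was 7.44 RPKM, and no WT or Wfs1HZ animal exceeded 2.29 RPKM. Cxcl9 thus had a log2 fold change of 2.91 against WT (SE 1.03, limma adjusted p = 0.835, exact permutation p = 0.086, two-sided), and 3.88 without replicate 4. In WT animals the values of Cxcl9 stand for about 1.1 to 44.1 reads. Cxcl10 (chromosome 5, 92346638 to 92348889), whose promoter holds both motifs, was expressed at a higher level, with 36.68, 26.57, 62.32 and 80.51 RPKM in WT, 42.8, 91.38, 102.96 and 61.38 RPKM in Wfs1HZ and 104.99, 140.49, 262.81 and 20.31 RPKM in Wfs1KO animals. All other 11 animals lay above Wfs1KO replicate 4. Cxcl10 had a log2 fold change of 1.00 against WT (SE 0.71, adjusted p = 0.92 from limma), and 1.74 without replicate 4.

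Among the CC chemokines, which attract monocytes and T cells, Ccl2 (chromosome 11, 82035571 to 82037453) had the highest level. Its RPKM was 125.43, 91, 225.55 and 230.77 in WT, 319.51, 35.4, 229.57 and 168.54 in Wfs1HZ and 537.43, 383.09, 534.99 and 25.85 in Wfs1KO animals. Wfs1KO replicate 4 and Wfs1HZ replicate 2 had the lowest levels of the 12, and the other Wfs1KO animals the highest. For Ccl2 the log2 fold change against WT was 0.57 (SE 0.91, adjusted p = 0.964 from limma), and 1.62 without replicate 4. Ccl7, its neighbour on chromosome 11, had 33.2 ± 12.2, 34.6 ± 23.1 and 81.2 ± 57.7 RPKM (SD, n = 4) in WT, Wfs1HZ and Wfs1KO islets. Ccl3, an attractant of monocytes and neutrophils, had 11.8 ± 6.32, 14.2 ± 13.9 and 29 ± 28.5 RPKM, and its low-read neighbour Ccl4 had 1.91 ± 1.33, 2.25 ± 1.62 and 4.29 ± 3.54 RPKM and was listed at 0 in Wfs1KO replicate 4. Ccl5, an attractant of T cells, had 16.9 ± 8.81, 25.8 ± 21.1 and 28.9 ± 18.1 RPKM, and its highest value, 56.11 RPKM, came from Wfs1HZ replicate 3. For 4 of the 5 CC chemokines, all but Ccl4, Wfs1KO replicates 1 to 3 lay above every WT animal, as they did for 4.11% of all transcripts. The homeostatic and membrane-bound chemokines had no such split, except for Cxcl16. Cxcl12, which holds stem and immune cells in tissue, had 2.15 ± 1.39, 2.8 ± 2.06 and 2.13 ± 0.678 RPKM, membrane-bound Cxcl16 had 27.2 ± 9.29, 32.7 ± 11.8 and 37.5 ± 13.2 RPKM and membrane-bound Cx3cl1, the ligand of a microglial and monocyte receptor, had 7.4 ± 3.35, 10.5 ± 4.45 and 9.45 ± 3.76 RPKM. Cx3cl1 was the gene of the 37 with its highest value in Wfs1KO replicate 4, 14.75 RPKM.

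Of the interleukins and related cytokines, Il6 (chromosome 5, 30013114 to 30019981) had the highest level. Interleukin-6 induces acute phase proteins. Il6 had 30.79, 15.96, 96.73 and 65.53 RPKM in WT, 83.24, 20.43, 75.67 and 26.07 RPKM in Wfs1HZ and 98.71, 125.19, 155.82 and 10.29 RPKM in Wfs1KO animals. Wfs1KO replicates 1 to 3 were the 3 highest animals, the lowest of them close to the highest WT animal, and replicate 4 was the lowest. Against WT, Il6 had a log2 fold change of 0.67 (SE 0.88, adjusted p = 0.95 from limma), and 1.56 without replicate 4. Il1b, the cytokine best known for harming beta cells, did not share the high values, with 5.61 ± 2.39, 6.7 ± 1.97 and 4.95 ± 2.55 RPKM (SD, n = 4) in WT, Wfs1HZ and Wfs1KO islets, and with 6.03, 6.22 and 6.42 RPKM in Wfs1KO replicates 1 to 3 against 2.6 to 8.38 RPKM in WT. Its natural inhibitor Il1rn, the interleukin-1 receptor antagonist, was expressed at 30.5 ± 8.08, 26.1 ± 9.38 and 44.2 ± 23.5 RPKM. In Wfs1KO replicates 1 to 3 Il1rn had 54.9, 58.61 and 54.23 RPKM, above the highest WT animal at 41 RPKM, and in replicate 4 it had 9.08 RPKM. Tnf, tumor necrosis factor, had 1.76 ± 0.71, 2.68 ± 0.759 and 3.56 ± 1.58 RPKM, the alarmin Il33 had 1.27 ± 0.902, 3.54 ± 4.26 and 2.63 ± 0.832 RPKM, and Lif, a cytokine of the interleukin-6 family, had 23.7 ± 12.8, 27.5 ± 9.51 and 37.6 ± 16.4 RPKM. The wide spread of Il33 in Wfs1HZ came from replicate 2, with 9.91 RPKM.

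**Figure D3:**
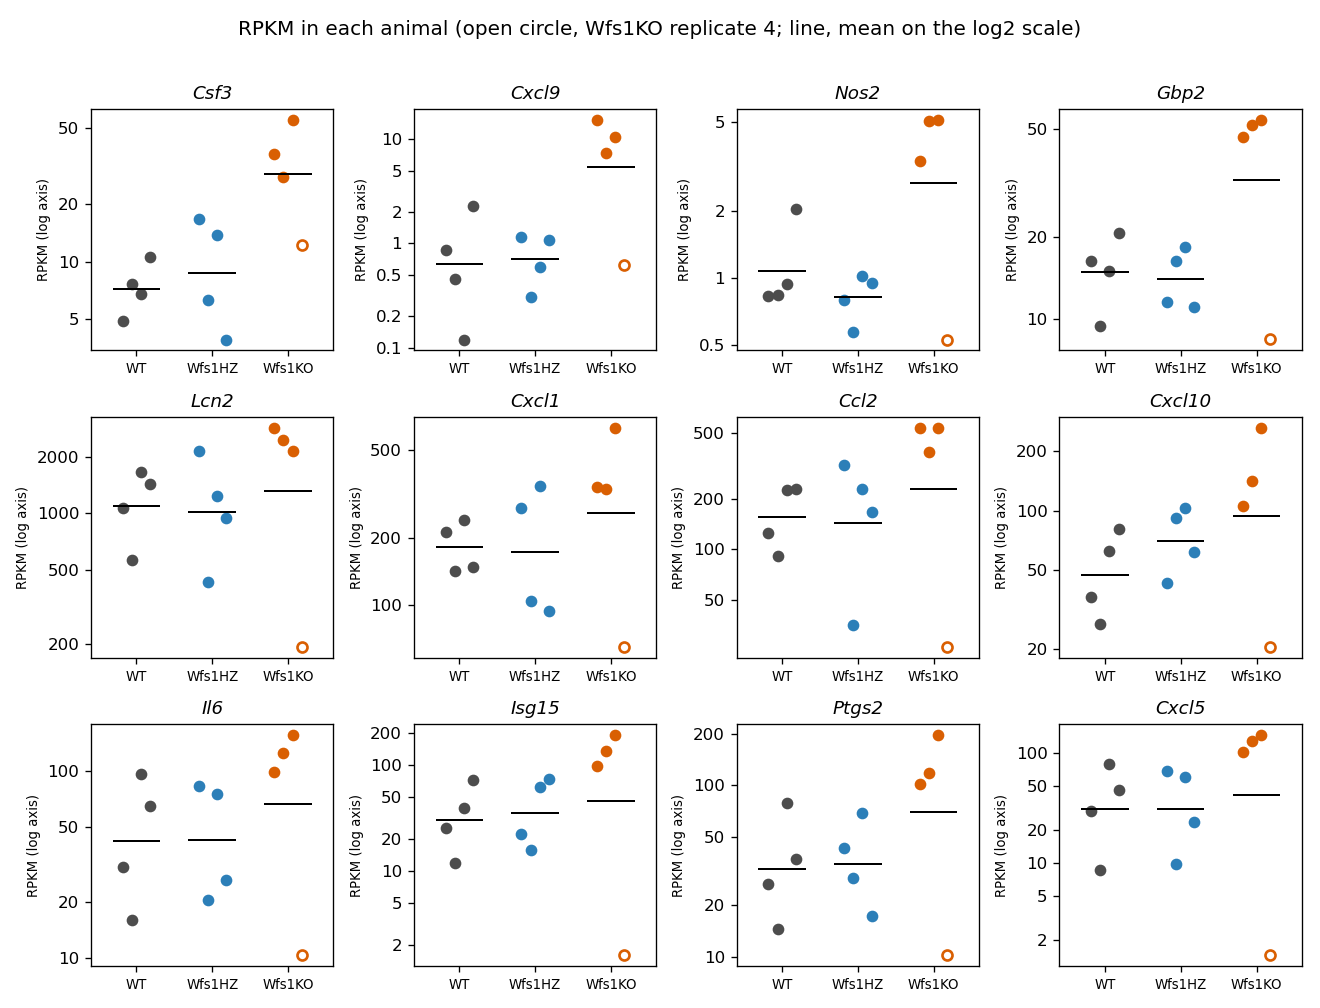
RPKM of 12 genes in each of 12 animals on log axes, with 1 point per animal and a line at the mean of the genotype on the log2 scale. Wfs1KO replicates 1 to 3 lie at the top of each panel, except that 1 Wfs1HZ animal lies among them for Cxcl1, and replicate 4, the open circle, lies among or below the WT animals except for Csf3.

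Nfkbia and Tnfaip3 are feedback inhibitors that limit the response to NF-kB. Nfkbia encodes IkB-alpha, the inhibitor that holds NF-kB in the cytoplasm and that NF-kB itself induces. Its RPKM was 26.7, 16.19, 30.24 and 16.24 in WT, 53.46, 25.81, 53.33 and 12.79 in Wfs1HZ and 41.83, 34.51, 25.94 and 13.58 in Wfs1KO animals, so that 2 Wfs1HZ animals were the highest. Nfkbiz, a nuclear IkB protein, had 18.7 ± 6.04, 21.4 ± 8.16 and 25.7 ± 11.9 RPKM (SD, n = 4) and Tnfaip3, the ubiquitin-editing enzyme A20, had 23.5 ± 7.23, 34.3 ± 15.3 and 39.9 ± 16.9 RPKM in WT, Wfs1HZ and Wfs1KO islets. The log2 fold changes of the 3 genes between Wfs1KO and WT lay between 0.31 and 0.67, and without replicate 4 between 0.64 and 1.05. In the latter setting 1 of the 3 lay above every WT animal, where 4.11% of all transcripts did so.

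Lcn2 (chromosome 2, 32384633 to 32388252), which encodes lipocalin-2, an iron-chelating protein of innate defense, was by level the leading gene of the 37. It had 1067.84, 562.06, 1662.93 and 1428.05 RPKM in WT, 2143.13, 431.99, 1234.19 and 939.62 RPKM in Wfs1HZ and 2860.95, 2468.37, 2151.1 and 192.51 RPKM in Wfs1KO animals. Wfs1KO replicates 1 to 3 were the 3 highest, with Wfs1HZ replicate 1 just below them. Against WT, Lcn2 had a log2 fold change of 0.26 (SE 0.86, adjusted p = 0.991 from limma), 1.18 without replicate 4 and -0.12 without replicate 1. Ptgs2 (chromosome 1, 150100031 to 150108227), which encodes cyclooxygenase-2, the inducible enzyme of prostaglandin synthesis, had 26.65, 14.57, 78.56 and 37.51 RPKM in WT, 43.2, 29.02, 68.88 and 17.27 RPKM in Wfs1HZ and 101.29, 118.06, 194.83 and 10.26 RPKM in Wfs1KO animals. Again the 3 highest and the lowest animal were Wfs1KO. Ptgs2 had a log2 fold change of 1.10 against WT (SE 0.88, adjusted p = 0.927 from limma), and 2.02 without replicate 4. The adhesion molecule Icam1 had 38.1 ± 7.17, 59.3 ± 28.3 and 75.6 ± 38.7 RPKM (SD, n = 4) in WT, Wfs1HZ and Wfs1KO islets. The acute phase gene Saa3 went its own way, with 8.04 ± 6.04, 3.01 ± 1.86 and 8.86 ± 11.1 RPKM, the highest value of 24.7 RPKM in Wfs1KO replicate 1 and a value of 0 listed in replicate 4.

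Nos2 and Gbp2 were 2 of the 4 genes with an unadjusted p under 0.05 between Wfs1KO and Wfs1HZ, where 2.45% of all transcripts had one. Nos2 (chromosome 11, 78920787 to 78960254) encodes the inducible nitric oxide synthase, which cytokines switch on in beta cells and macrophages. It was low throughout, with 0.83, 0.84, 0.94 and 2.03 RPKM in WT, 0.8, 0.57, 1.02 and 0.95 RPKM in Wfs1HZ and 3.34, 5.04, 5.12 and 0.53 RPKM in Wfs1KO animals. For Nos2 the log2 fold change against Wfs1HZ was 1.59 (SE 0.70, limma adjusted p = 1, exact permutation p = 0.143, two-sided), and 2.30 without replicate 4. Gbp2 (chromosome 3, 142620602 to 142638008), a guanylate-binding protein gene induced by interferon-gamma, had 16.31, 9.42, 15.02 and 20.71 RPKM in WT, 11.55, 16.24, 18.29 and 10.98 RPKM in Wfs1HZ and 46.62, 51.73, 53.95 and 8.37 RPKM in Wfs1KO animals. The 3 high animals differed little among themselves and exceeded every WT and Wfs1HZ animal more than 2-fold, while replicate 4 was the lowest of the 12. Between Wfs1KO and Wfs1HZ the log2 fold change of Gbp2 was 1.21 (SE 0.54, limma adjusted p = 1, exact permutation p = 0.143, two-sided), and 1.86 without replicate 4.

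The interferon targets were wide-ranging within each genotype. Isg15 (chromosome 4, 156199424 to 156200818), an interferon-induced ubiquitin-like protein gene with the 3 ISRE motifs shown above, had 25.46, 11.75, 38.76 and 71.25 RPKM in WT, 22.31, 15.56, 61.79 and 73.26 RPKM in Wfs1HZ and 97.4, 133.29, 188.4 and 1.6 RPKM in Wfs1KO animals. The highest of these values was 118 times the lowest, which stands for about 4.0 reads and carries a large counting error. Against WT, Isg15 had a log2 fold change of 0.58 (SE 1.37, adjusted p = 0.981 from limma), 2.16 without replicate 4 and -0.11 without replicate 3. Irf7, a transcription factor that amplifies the interferon response, had 18.2 ± 15.6, 13 ± 9.05 and 30.2 ± 19.3 RPKM (SD, n = 4) in WT, Wfs1HZ and Wfs1KO islets. The antiviral genes Ifit3 and Ifit1 had 6.86 ± 5.2, 9.36 ± 7.74 and 15.2 ± 11.4 RPKM and 33.1 ± 15.8, 26.1 ± 12.5 and 37.2 ± 20.4 RPKM in the same order. Irf1, a transcription factor induced by interferon-gamma, had the smallest SD relative to its mean of the interferon targets in WT, with 16.1 ± 1.78, 18.3 ± 8.82 and 19.1 ± 4.03 RPKM. Socs1, an inhibitor of JAK signaling, was the lowest gene of the 37 at 0.242 ± 0.2, 0.645 ± 0.442 and 0.338 ± 0.232 RPKM, with fewer than 3 approximate reads in 5 animals. For 3 of the 7 interferon targets, Isg15, Ifit3 and Gbp2, Wfs1KO replicates 1 to 3 lay above every WT animal, as they did for 4.11% of all transcripts.

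**Figure D4:**
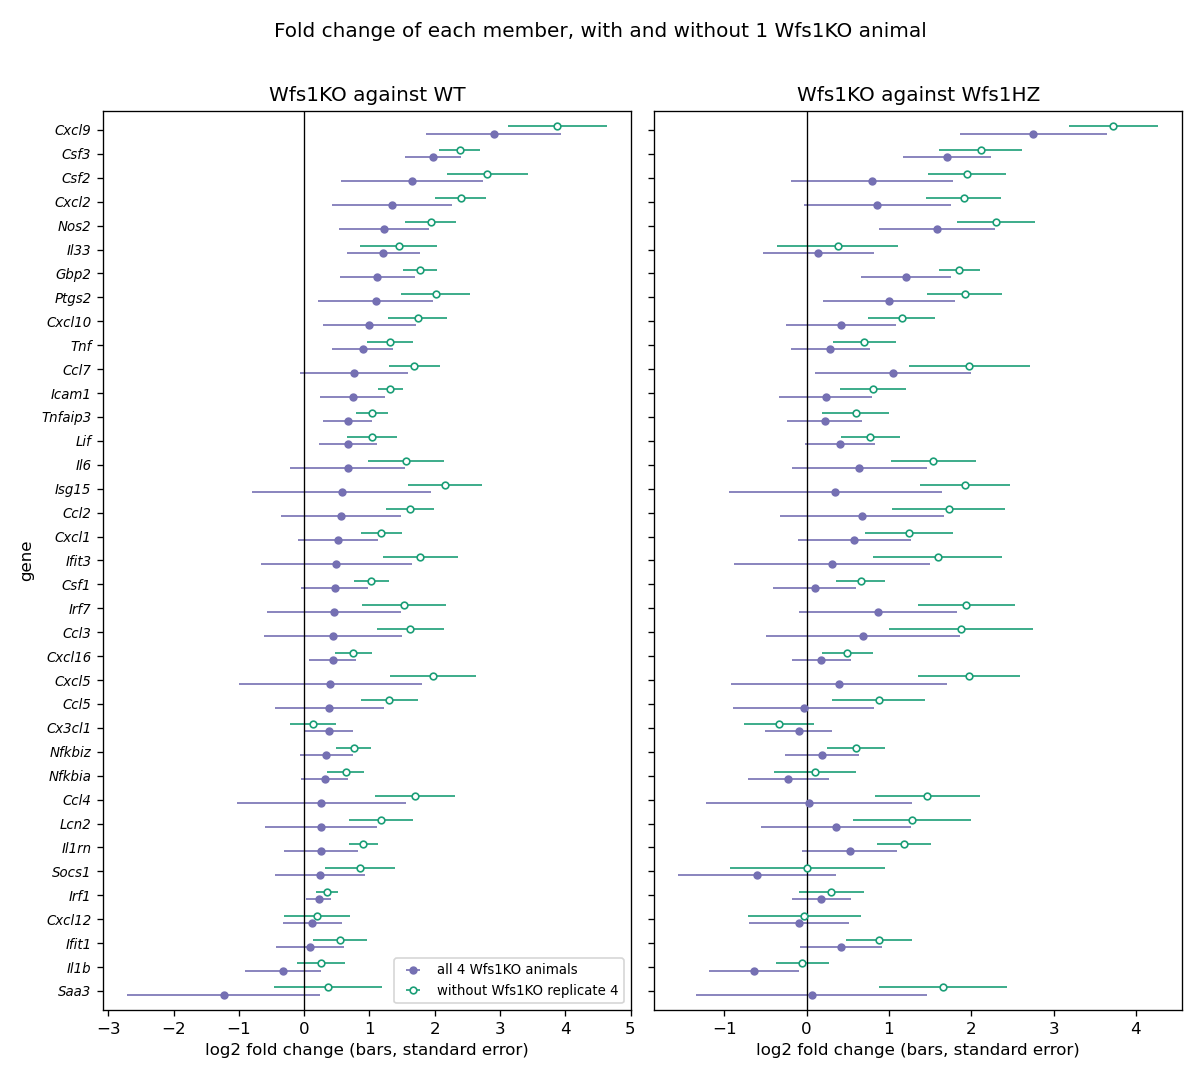
Log2 fold change of each of the 37 genes between Wfs1KO and WT (left) and between Wfs1KO and Wfs1HZ (right), with bars of 1 standard error, for all 4 Wfs1KO animals (filled) and without replicate 4 (open). The median moves from 0.50 to 1.32 on the left and from 0.36 to 1.25 on the right, and the standard errors shrink for most genes.

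The second comparison asked whether heterozygous islets differed from WT. Here 0 of the 37 genes had an FDR under 0.05 by limma, as did 0% of all transcripts, and 0 genes had an unadjusted p under 0.05, where 2.35% of all transcripts had one. With sample weights there were 8 (7.09% of all transcripts). The animals of the 2 genotypes overlapped for every one of the 37 genes, and 1.66% of all transcripts did not overlap. The log2 fold change was above 0 for 26 genes (53.5% of all transcripts), and its median was 0.22 against 0.04 over all transcripts. The highest and lowest of the 37, named here for their size after they were seen, were Il33 with a log2 fold change of 1.08 and Saa3 with -1.29 (adjusted p = 1 from limma for both). With so few animals an interval around a difference is wide. For Gbp2, the 95% confidence interval of the log2 fold change between Wfs1HZ and WT ran from -0.72 to 0.55, and for Cxcl1 from -1.05 to 0.93.

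The third comparison set Wfs1KO against Wfs1HZ islets and used the same Wfs1KO animals as the first. Of the 37 genes 0 had an FDR under 0.05 by limma, as did 0% of all transcripts. In this comparison the paper's edgeR test of counts listed Cxcl9 at an FDR under 0.05. An unadjusted p under 0.05 was found for 4 genes, Csf3, Cxcl9, Nos2 and Gbp2, all higher in Wfs1KO, where 2.45% of all transcripts had one. No gene of the 37 had non-overlapping animals, and 1.43% of all transcripts did. The log2 fold change was 1.71 (SE 0.54) for Csf3 and 2.75 (SE 0.90) for Cxcl9, with an adjusted p = 1 from limma for both and p = 0.086 in the exact two-sided permutation test, and without replicate 4 it was 2.11 and 3.73. The log2 fold change was above 0 for 31 of the 37 genes (53.5% of all transcripts), with a median of 0.36 against 0.04 over all transcripts. Without Wfs1KO replicate 4 the median was 1.25, 17 genes had an unadjusted p under 0.05 (3.6% of all transcripts), the remaining Wfs1KO animals lay above every Wfs1HZ animal for 18 genes (2.83% of all transcripts), and the lowest adjusted p was 0.353. Nfkbia, Nfkbiz and Tnfaip3 were not among those 18 genes, and neither were Cxcl12, Cxcl16 and Cx3cl1.

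Receptors and signaling genes of the same pathways were read from lists of other genes. Of 27 chemokine and cytokine receptors, 3 had an unadjusted p under 0.05 toward Wfs1KO and 1 toward WT (5.64% of all transcripts), 0 had an FDR under 0.05 and the median log2 fold change was 0.17. Without replicate 4 these counts were 5 and 1 (8.62% of all transcripts) and the median was 0.16. Cxcr7, a scavenging receptor of Cxcl12, had 1.23 to 4.09 RPKM in WT and 4.19 to 15.93 RPKM in Wfs1KO animals, which did not overlap (log2 fold change 1.34, SE 0.51, adjusted p = 0.84 from limma, and 1.58 without replicate 4). Between these genotypes 2.74% of all transcripts did not overlap. Il6ra, the receptor of interleukin-6, was lower in every Wfs1HZ animal (7.99 to 16.16 RPKM) than in every WT animal (17.7 to 19.27 RPKM), with a log2 fold change of -0.56 (SE 0.24, adjusted p = 1 from limma). For Wfs1HZ and WT 1.66% of all transcripts did not overlap. Tnfrsf1a, a receptor of tumor necrosis factor, had 22.72 to 38.16 RPKM in Wfs1HZ and 32.68 to 52.68 RPKM in Wfs1KO animals.
Of 20 genes of the NF-kB pathway itself, 1 had an unadjusted p under 0.05 toward Wfs1KO against WT (5.64% of all transcripts) and the median log2 fold change was 0.14. Without replicate 4 there were 5 such genes of 20 (8.62% of all transcripts), 4 lay above every WT animal (4.11% of all transcripts), 17 were above 0 (51% of all transcripts) and the median was 0.23. With all animals the gene was Bcl3, a nuclear IkB protein, with 23.44, 17.89, 16 and 26.2 RPKM in WT and 61.88, 46.04, 26.11 and 20.76 RPKM in Wfs1KO animals. Nfkb2, a subunit of NF-kB, was higher in every Wfs1HZ animal (10.9 to 13.96 RPKM) than in every WT animal (7.5 to 9.76 RPKM), with a log2 fold change of 0.53 (SE 0.20, adjusted p = 1 from limma). Of all transcripts 1.66% did not overlap between these genotypes. The inhibitors Nfkbib and Nfkbie had 8.51 to 17.97 and 2.9 to 4.95 RPKM in WT, and 8.23 to 32.57 and 2.99 to 6.03 RPKM in Wfs1KO animals.

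Other targets of the pathways, again from lists that share no gene with the 37, are given with and without replicate 4. Of 21 other NF-kB targets, 18 had a log2 fold change above 0 between Wfs1KO and WT (57.8% of all transcripts) with a median of 0.45, and 0 had an unadjusted p under 0.05 (5.64% of all transcripts). Without replicate 4 all 21 were above 0 (51% of all transcripts) with a median of 1.04, 11 had an unadjusted p under 0.05 (8.62% of all transcripts) and for 9 the Wfs1KO animals lay above every WT animal (4.11% of all transcripts). The chemokine Ccl20 and the signaling adaptor Traf1 had 0 to 2.97 and 0.87 to 4.11 RPKM in WT and 1.13 to 3.11 and 2.21 to 4.94 RPKM in Wfs1KO animals. Il1a, the other interleukin-1, had 0.6 to 1.71 RPKM in Wfs1HZ and 1.07 to 2.81 RPKM in Wfs1KO animals. Sod2, the mitochondrial superoxide dismutase, had 28.32 to 48.32 RPKM in WT and 16.3 to 37.53 RPKM in Wfs1HZ animals, and Selp, the adhesion molecule P-selectin, had 29.66 to 54.81 and 31.07 to 124.89 RPKM.
Of 35 other interferon targets, 31 had a log2 fold change above 0 between Wfs1KO and WT (57.8% of all transcripts) with a median of 0.51, and 1 had an unadjusted p under 0.05 (5.64% of all transcripts). Without replicate 4 all 35 were above 0 (51% of all transcripts) with a median of 1.01, 18 had an unadjusted p under 0.05 (8.62% of all transcripts) and 9 lay above every WT animal (4.11% of all transcripts). The exception with all animals was Tap1, a peptide transporter for antigen presentation, with 5.19, 4.48, 4.39 and 8.43 RPKM in WT, 9.22, 10.44, 8.43 and 8.06 RPKM in Wfs1HZ and 15.46, 10.8, 12.42 and 8.19 RPKM in Wfs1KO animals. Tap1 overlapped between Wfs1KO and WT by 1 animal on either side and had a log2 fold change of 1.06 (SE 0.28, limma adjusted p = 0.835, exact permutation p = 0.057, two-sided), and 1.22 without replicate 4. Cd274, which encodes the T cell inhibitor PD-L1, had 10.17 to 19.66 RPKM in WT and 28.67, 41.52, 36.72 and 11.6 RPKM in Wfs1KO animals. The interferon-induced GTPases Irgm1 and Iigp1 had 5.48 to 13.02 and 1.3 to 3.15 RPKM in Wfs1HZ and 12.72 to 29.62 and 1.54 to 11.74 RPKM in Wfs1KO animals.

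Within the 37 genes, 3 were used as anchors to see which genes varied most like them over the 12 animals, by Spearman's rho of RPKM. Nearest to the chemokine Cxcl1 were Ccl3 (0.965), Ccl7 (0.937) and Tnfaip3 (0.923). The genes nearest to the inhibitor Nfkbia were Irf1 (0.902), Nfkbiz (0.860) and Tnfaip3 (0.797). Isg15 was nearest to Ifit3 (0.951), Nos2 and Irf7 (0.937 each). Isg15 and Nfkbia had a rho of 0.252 with each other, and Cxcl1 had 0.783 with Nfkbia and 0.650 with Isg15. These values describe 12 libraries that share depth, cell makeup and the low values of Wfs1KO replicate 4, and they were not tested.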

How the data were processed

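The 12 islet RNA samples were grouped by the genotype in their labels. Per the paper's methods the authors mapped SOLiD reads to mm10 with LifeScope and tested counts with edgeR; the tool that computed expression is not given in the sources used here. The authors deposited RPKM values of each transcript and animal, without a log transformation, so their count test was not repeated. Here each pair of genotypes was fitted alone with limma 3.58.1 (R 4.3.3), with a trended variance, on log2(RPKM + 0.1) for the 21701 transcripts that averaged 0.1 RPKM or more. Fold changes on this scale understate changes of low genes. Exact permutation tests, depth from the steps between values of RNA genes under 200 nt (95.1% to 100% whole reads within 0.05), approximate reads (RPKM by GENCODE M21 exon length and depth), motif searches and figures used Python 3.11.15. The procedure was tested on simulated data.

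The genes, lists and tests were chosen with earlier results of these data known. Every one of the 37 genes was named; values by animal and fold changes were given for those with a mean of at least 1 RPKM and an unadjusted p under 0.05 or no overlap (at most 8 a comparison), for the 8 of highest mean, and values for up to 2 genes from each other list and comparison. Values of some other genes by animal were chosen after they were seen. Some genes that the rule or a marker list names are not reported here. Alternatives were other pseudocounts, filters, scalings and variance models, sample weights, all samples in a single fit, the replicate block and each animal left out.

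Replicate numbers come from the labels and name different animals, and p-values measure the spread between these animals.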

Additional observations from a re-analysis of the deposited data

Results flagged for a closer look

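A Dixon test for a single far value was made in each genotype for each of the 37 genes and for their median, 114 groups of 4 animals, of which chance alone flags about 5.7. It flagged 19. The share of such flags over all transcripts was not counted. Of the 19, 16 were low values of Wfs1KO replicate 4, which had already been picked out from these values. The gap on that log2 scale from this animal to its nearest Wfs1KO neighbour, as a share of the range of the 4 animals, was 0.922 for Cxcl5, 0.849 for Cxcl16, 0.888 for Ccl2, 0.878 for Ccl5 and 0.841 for Csf2. Among cytokines it was 0.963 for Il1b, 0.832 for Il6 and 0.958 for Il1rn. For NF-kB effector genes it was 0.871 (Icam1) and 0.894 (Lcn2). Interferon targets gave 0.915 for Irf7, 0.860 for Isg15, 0.837 for Ifit3, 0.921 for Gbp2 and 0.874 for Socs1, and the median of the 37 genes gave 0.920. All of these passed the 95% critical value for 4 animals. Since the genes vary together over the animals, these flags are not independent of each other. In Wfs1KO replicate 4 Socs1 was listed at 0, and Csf2, Ifit3 and Isg15 stand for about 0.76, 2.6 and 4.0 reads. The shares of these genes therefore carry a large counting error and depend on the pseudocount. The same animal also had the lowest acinar and ductal sums and the highest Gcg, and the part of these in the low values was not tested.

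The other 3 flags were single values, given here in RPKM with the same share on the log2 scale. Lif was low in Wfs1HZ replicate 4 (13.4 RPKM, 0.876), Nos2 was high in WT replicate 4 (2.03 RPKM, 0.865) and Socs1 was listed at 0 in Wfs1HZ replicate 2 (0.902), where the depth was lowest.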

How the results depend on the processing

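No gene of the 37 reached an FDR under 0.05 by limma in any comparison under any alternative tried. The median log2 fold change of the 37 genes depended on single animals. For Wfs1KO against WT it was 0.28 to 1.32 with each animal left out and 0.36 to 1.09 otherwise, the latter with sample weights. For Wfs1HZ against WT it was -0.04 to 0.38 and 0.18 to 0.61, and for Wfs1KO against Wfs1HZ 0.11 to 1.25 and 0.23 to 1.03. The count of genes whose animals did not overlap between Wfs1KO and WT was 1, that of Csf3, and 0 under median-of-ratios scaling and quantile normalization. With each animal left out it was 1 to 25 for Wfs1KO against WT (25 without Wfs1KO replicate 4). For Wfs1HZ against WT it was 0 to 1 (1 without WT replicate 3, Wfs1HZ replicate 2 or Wfs1HZ replicate 4). For Wfs1KO against Wfs1HZ it was 0 to 18. The 18 genes without Wfs1KO replicate 4 were higher in Wfs1KO. Without Wfs1HZ replicate 2 or 4 the count was 1, a gene lower in Wfs1KO. For this comparison the count was 21 (20 higher and 1 lower) without both Wfs1HZ replicate 2 and Wfs1KO replicate 4. That alternative was chosen after seeing the data. The number of genes with a log2 fold change above 0 between Wfs1KO and WT was 30 without WT replicate 2 (61.7% of all transcripts) or Wfs1KO replicate 2 (55.9%) and 28 without Wfs1KO replicate 3 (66.8%), in place of 35 (57.8%). Of the 37 genes, 12 turned sign under at least 1 alternative, among them Ccl4 and Socs1 at a pseudocount of 0.01. Of the 10 genes given with fold changes against WT the sign turned for Lcn2 (-0.12 to 1.18 with each animal left out, -0.06 without WT replicate 2 and -0.05 without Wfs1KO replicate 2), Isg15 (-0.11 to 2.16) and Cxcl5 (-0.21 to 1.98, with -0.03, -0.14 and -0.20 without Wfs1KO replicate 1, 2 or 3). The cause was not tested.

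With the replicate block the medians stayed at 0.50, 0.22 and 0.36 for Wfs1KO against WT, Wfs1HZ against WT and Wfs1KO against Wfs1HZ, and 0 genes passed. Animals with the same number did not deviate together. The correlation of their deviations was -0.13 to 0.06, -0.05 to 0.23 and -0.17 to 0.09, so the numbers were not used as pairs. With sample weights 15 of the 37 genes had an unadjusted p under 0.05 between Wfs1KO and WT in place of 2 (9.52% of all transcripts), and 8 in place of 0 between Wfs1HZ and WT (7.09% of all transcripts). At the lowest depth a gene of 2 kb under 0.685 RPKM rests on fewer than 3 reads, which limits the low values of Cxcl9, Csf2, Ccl4 and Socs1. Ccl3, Ifit3 and Saa3 also had fewer than 3 approximate reads in at least 1 animal.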
